A study of Mus musculus with 5 samples.

Results

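Luminal progenitor cells of the mouse mammary gland were taken from droplet single-cell RNA profiles by a gate on marker transcripts. A cell was a member when it held at least 1 transcript of at least 3 of the 6 genes Kit, Elf5, Aldh1a3, Plet1, Cd14 and Csn3, with at least 2 of the first 4 among them. It also needed at least 3 transcripts of the luminal keratins Krt8 and Krt18 together. Cells were left out when they showed 3 or more of the 6 hormone-sensing markers Prlr, Esr1, Pgr, Ptn, Cited1 and Areg, or at least 5 transcripts of the basal keratins Krt5 and Krt14. Any transcript of the leukocyte gene Ptprc also removed a cell, as did 50 or more transcripts of 3 fibrillar collagens per 10000. Transcripts were counted by unique molecular identifiers (UMIs). The members were thus chosen by measured counts of these genes. The gate found 1864 members among 28588 cells kept, out of 32472 barcodes.

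The study profiled mammary glands of 5 mice with 10x Genomics 3′ libraries: 3 libraries labelled Frmd3 knockout (KO1, KO2 and KO3) and 2 labelled wild type (WT1 and WT2). Its title ties FRMD3, a protein with a FERM domain, to epithelial fate and Notch signalling. The allele, the part of Frmd3 removed, the strain, the age and the reproductive stage of the mice were not given in the sources used here. Beyond the number of mice, nothing ties a library to an animal, so p-values measure the spread between these libraries.

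The luminal layer of the mammary duct holds hormone-sensing cells, which carry estrogen and progesterone receptors, and hormone receptor-negative progenitors that give rise to the milk-secreting alveolar lineage. The progenitors depend on the receptor tyrosine kinase KIT and on the transcription factor ELF5, a driver of alveolar differentiation. ALDH1A3 oxidises retinal to retinoic acid and marks progenitor activity, and Notch signals help to set luminal fate.

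The members numbered 659 in KO1, 310 in KO2, 35 in KO3, 660 in WT1 and 200 in WT2. All lists of 5 values below follow the order KO1, KO2, KO3, WT1, WT2. Median depths of members were 9330, 10947.5, 7656, 9538 and 14412.5 UMIs per cell, and their summed counts were 6567864, 3841530, 306508, 6885805 and 3036388 UMIs. KO3 thus had the fewest members and the smallest sum, in which 3 UMIs correspond to 9.79 CPM (a gene's UMIs over the summed UMIs of the class, on the usual per-1e6 scale). In the other libraries 3 UMIs correspond to 0.436 to 0.988 CPM. Of 32364 different barcode sequences 108 occurred in more than 1 library, and no member shared its barcode with a member of another library. Frmd3 itself had 1, 0, 0, 0 and 2 UMIs in members, at or under the 3 UMIs that a count of 0 allows. Over all barcodes Frmd3 had 159, 202, 44, 79 and 210 UMIs (2.12, 3.06, 1.82, 1.42 and 2.40 CPM), so that KO and WT libraries overlapped. The genotype labels could not be checked with Frmd3, since a 3′ tag may lie outside the part removed.

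Of the members, 787 held all 6 progenitor markers, 615 held 5, 318 held 4 and 144 held 3. The number detected followed depth: the median was 12230 UMIs in members with 6 markers and 3508.5 in members with 3. Just outside the marker threshold lay 80 cells with 2 markers, with a median of 2203 UMIs, that met every other condition. The threshold on hormone-sensing markers had 468 members with 2 of them inside and 196 cells with 3 outside. The collagen limit behaved unevenly, with 44 members at 25 to 50 collagen UMIs per 10000 and 294 cells at 50 to 100, of which 284 came from KO1.

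The 6 progenitor markers chose the members, so their levels describe the gate and were not tested. The comparison gate for hormone-sensing cells needed at least 3 of their 6 markers and fewer than 2 of Kit, Elf5, Aldh1a3 and Plet1. Low levels of these 4 genes in hormone-sensing cells were thus in part set by the gates. Keratin, Ptprc and collagen limits were those of members. Basal cells needed at least 5 transcripts of Krt5 and Krt14 and at least 2 of 7 further basal markers. Their Ptprc and collagen limits were also those of members. Elf5, the alveolar transcription factor, stood at 229, 131, 245, 266 and 100.4 CPM in members, at no more than 1.72 CPM in hormone-sensing cells and at 0 to 31.5 CPM in basal cells. Kit stood at 515, 199, 548, 521 and 191 CPM and was near 0 in hormone-sensing cells. Aldh1a3 reached 840.0, 1920.3, 776, 1185 and 2293 CPM, against 0.286 to 2.41 CPM in hormone-sensing cells. Plet1, a surface protein of progenitors, ran from 3572 CPM in KO3 to 7149 CPM in KO2 and was also present in hormone-sensing cells at 131 to 315 CPM. Csn3, the kappa-casein gene, ran from 1755 CPM in KO3 to 4490.2 CPM in KO1. Cd14, the lipopolysaccharide co-receptor, stood at 412, 252, 134, 288 and 187 CPM. It was higher in the leukocytes (gate given below) of each library, at 516, 505, 394, 754 and 319 CPM. On mm10, Kit lies on chromosome 5 at 75574916 to 75656722, Elf5 on chromosome 2 at 103411688 to 103450989 and Aldh1a3 on chromosome 7 at 66390890 to 66427517.

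**Figure D1:**
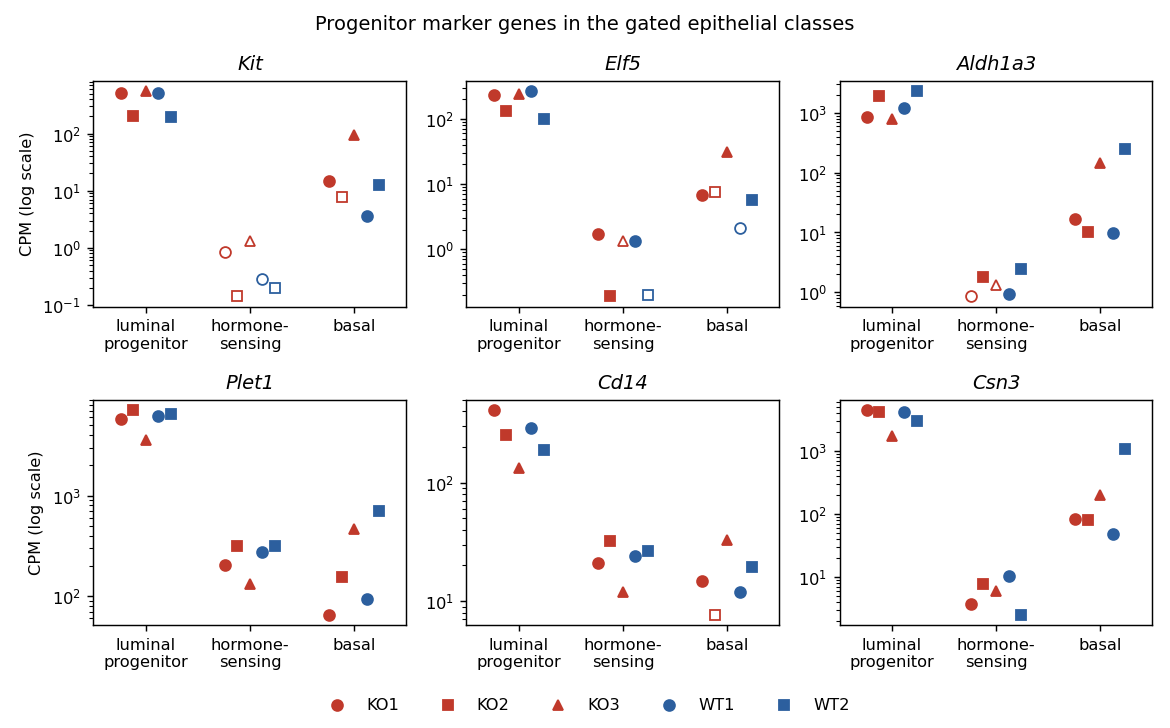
CPM (log axis) of the 6 gate markers in cells of the luminal progenitor, hormone-sensing and basal gates, 1 point per library, red for KO and blue for WT, with circles, squares and triangles for replicates 1, 2 and 3. Open points hold fewer than 3 UMIs and are drawn at the level of 3 UMIs. Of these gates every marker is highest in luminal progenitor cells in each library. The member gate asked for these markers and the hormone-sensing gate limited Kit, Elf5, Aldh1a3 and Plet1, while the basal gate did not limit them.

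Because shallow cells show fewer genes, detection was also compared after thinning each cell to 3000 UMIs, which left out 51, 20, 4, 52 and 8 members. Kit was then found in 72.9%, 42.4%, 71.0%, 72.0% and 37.5% of members, and before thinning in 93.0%, 74.5%, 88.6%, 89.4% and 71.5%. In leukocytes, gated by Ptprc without luminal keratins, thinned Kit was found in 1.37% to 5.22%. Csn3 was found in 90.3% to 94.8% of thinned members and in 0.290% to 4.53% of thinned leukocytes. Cells of the hormone-sensing gate had median depths of 14917 to 20953 UMIs and leukocytes 4639 to 5164.

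Levels of other classes' markers in members were in part set by the gate. The 6 hormone-sensing markers, all limited by it, summed to 134 to 285 CPM and check nothing. The 9 basal/myoepithelial markers summed to 44.6, 148, 42.4, 58.7 and 328 CPM, with Krt5 and Krt14 limited by the gate, and were highest in WT2, where the smooth muscle actin gene Acta2 stood at 164 CPM. Pan-leukocyte markers summed to 43.1, 6.77, 13.1, 64.3 and 36.2 CPM, with Ptprc (a gate gene) and Cd3e at 0 in all libraries. Adipocyte markers summed to at most 0.329 CPM and the 4 endothelial markers to at most 18.0 CPM. The 6 fibroblast markers, with the collagens of the gate among them, summed to 266, 362, 111, 321 and 475 CPM. Pericyte markers, Notch3 among them, summed to 36.7 to 88.1 CPM. Schwann markers, Sox10 among them, summed to 34.6 to 52.2 CPM. The collagens of the gate were found in members and leukocytes alike: Col3a1 in 38.4%, 71.0%, 14.3%, 26.2% and 83.5% of members and in 40.4%, 66.9%, 22.8%, 24.7% and 79.3% of leukocytes, before thinning. Doublets were left in; a score against simulated doublets marked 10, 1, 0, 6 and 3 members.

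Leading genes were ranked by the lowest ratio over libraries to the higher of the hormone-sensing and basal levels, as a description with no test. Of 2056 genes with at least 50 CPM in members of every library, 83 exceeded a ratio of 2 in each, and the first 20 included the gate genes Elf5, Plet1, Kit, Aldh1a3 and Cd14. Outside the gate the list began with Bglap3, an osteocalcin-related gene, at 64.9, 86.9, 124, 56.6 and 86.9 CPM. The solute carriers Slc5a8, a transporter of monocarboxylates, and Slc5a7, the choline transporter, followed with lowest ratios of 10.2 and 10.1. Secreted signals were among them. Lif, a cytokine of the interleukin-6 family, stood at 234 to 343 CPM, Wnt5b, a Wnt ligand, at 65.3 to 116 CPM, and Cck, the cholecystokinin gene, at 81.6 to 186 CPM. Btn1a1 and Muc15, both components of the milk fat globule membrane, and Piezo1, a mechanosensitive channel, were on it as well.

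Some milk transcripts were rare in members. Of 19 milk protein and secretion genes, the caseins Csn2 and Csn1s1 and the whey protein gene Wap were almost absent. Csn2 was found in 2 members, Wap in 2 and Csn1s1 in 20 over all libraries. Lalba, the alpha-lactalbumin gene, was less rare, found in 117, 16, 0, 113 and 9 members (17.8%, 5.16%, 0%, 17.1% and 4.5%). The 20 antimicrobial and acute-phase genes ranged from abundant to absent. Saa1 was found in 3 members over all libraries, Saa3 and Reg3g in 2 each, and Bpifa2 in 0. S100a8, S100a9 and Slpi were found in some members of every library but KO3. Lcn2, which binds bacterial siderophores, stood at 5185, 4743, 4114, 4457 and 3636 CPM. Wfdc18, a secreted whey acidic protein-domain gene, stood at 3212 to 4388 CPM. Ltf, the iron-binding lactoferrin, stood at 1897, 2375, 2281, 2836 and 2726 CPM.

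Transcription factors outside the gate also set members apart, given here as a description. Sox10, a factor of neural crest that breast progenitors can carry, stood at 45.5, 28.1, 52.2, 38.9 and 24.7 CPM and at no more than 0.456 CPM in hormone-sensing cells. It was also present in basal cells, at 20.4 to 41.5 CPM. Ehf, an epithelial ETS factor, stood at 147 to 266 CPM, against 22.05 to 89.6 CPM in hormone-sensing cells. Foxa1, a partner of the estrogen receptor, lay the other way, at 9.29 to 21.7 CPM in members and 80.8 to 181 CPM in hormone-sensing cells. Gata3, a general luminal factor, stood at 74.8 to 176 CPM in members and 78.3 to 211 CPM in hormone-sensing cells, so that the classes overlapped. Sox10 and Foxa1 were chosen after their values were seen.

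Variation from cell to cell was ranked by the lowest Fano factor (variance over mean) in thinned cells of the 4 libraries with at least 100 of them. The first 12 were Malat1, Ltf, Fos, Hspa1a, Cst3, Egr1, Fosb, Atf3, Plet1, Cxcl2, Actb and Hspb1. Ltf had Fano factors of 22.3, 24.8, 21.7 and 18.8 in KO1, KO2, WT1 and WT2, where genes with a mean of at least 0.5 UMIs had medians of 1.30 to 1.34. In KO1 the 10th and 90th percentiles of Ltf were 0 and 22 UMIs around a median of 1, a wide spread within 1 library at equal depth. Fos and Egr1, stimulus-induced transcription factors, were correlated (Spearman rho 0.65, 0.48, 0.55 and 0.38), and Fos ran against Plet1 (rho -0.38, -0.36, -0.48 and -0.36). Trf, the transferrin gene, and Ltf had rho of -0.29, -0.07, -0.29 and -0.13; this pair was chosen after its values were seen. These correlations run over 608, 290, 608 and 192 cells that share a library and a fixed depth, and are descriptions.

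Some genes set KO2 and WT2 apart from KO1 and WT1; they were chosen after their values were seen. Trf stood at 1595, 248, 803, 1768 and 238 CPM. Apod, a lipid-binding lipocalin, stood at 83.3, 787, 215, 111 and 593 CPM. Thus KO2 and WT2 were low for Trf and high for Apod, with KO1, KO3 and WT1 on the other side for both. Btn1a1 stood at 201, 62.0, 258, 286 and 62.2 CPM, and Igfbp5, a binding protein of insulin-like growth factors, at 5049.7, 1989.8, 3302, 4961 and 1295 CPM. Ptn, a hormone-sensing marker that the gate limits, stood at 18.0, 150.2, 58.7, 29.5 and 143 CPM. KO2 and WT2 also had 4.29 and 3.87 hormone-sensing cells per member, against 0.334, 2.66 and 0.797 in KO1, KO3 and WT1. The labels name no batch, and the part of that cell makeup in these levels was not tested.

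**Figure D2:**
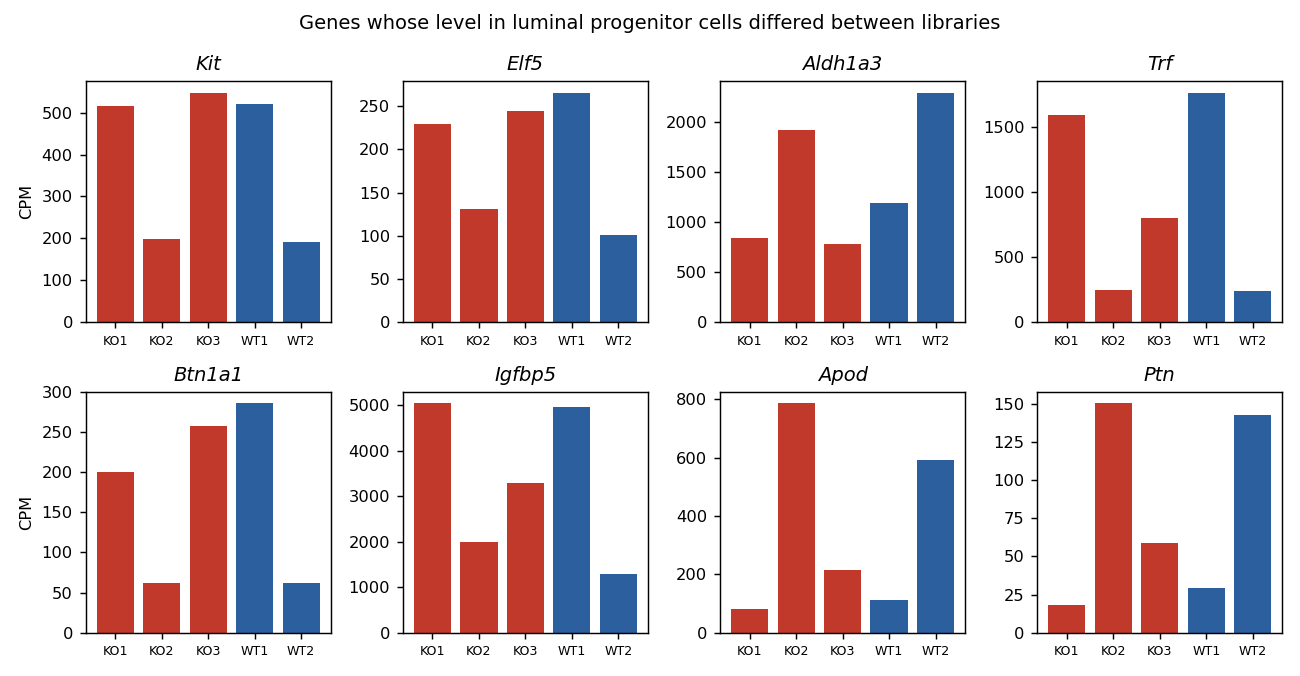
Bars give CPM in luminal progenitor cells (linear axes from 0) for 8 genes in each library, red for KO and blue for WT. KO2 and WT2 lie together in each panel, low for Kit, Elf5, Trf, Btn1a1 and Igfbp5 and high for Aldh1a3, Apod and Ptn.

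To ask whether genotype changed the size of the progenitor pool, shares were compared between libraries. Members made up 6.36%, 6.67%, 1.54%, 13.0% and 3.21% of cells kept. The WT libraries held both the highest and the second lowest share, so the groups overlapped. Means were 4.85% ± 2.88 (SD, n = 3) in KO and 8.12% ± 6.95 (SD, n = 2) in WT (two-sided exact permutation p = 0.6, where 3 libraries against 2 allow no p under 0.1). Of the cells in the 3 epithelial gates, members made up 66.9%, 18.6%, 21.5%, 50.0% and 19.3%. These means were 35.7% ± 27.1 (SD, n = 3) and 34.7% ± 21.7 (SD, n = 2; exact permutation p = 0.9). In percentage points the KO minus WT difference of 0.975 became -14.6 without KO1, -14.4 without WT2 and 16.3 without WT1, and that of -3.27 in the share of all cells became 1.645 without WT1. Exact binomial 95% intervals, which cover counting error only, overlapped for KO1 (5.90% to 6.84%) and KO2 (5.97% to 7.42%) in the share of all cells. In the share of gated epithelium they overlapped for KO2 (16.8% to 20.6%) and KO3 (15.4% to 28.6%). KO1 (63.9% to 69.8%) lay apart from both, as WT1 (47.3% to 52.8%) did from WT2 (17.0% to 21.9%).

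**Figure D3:**
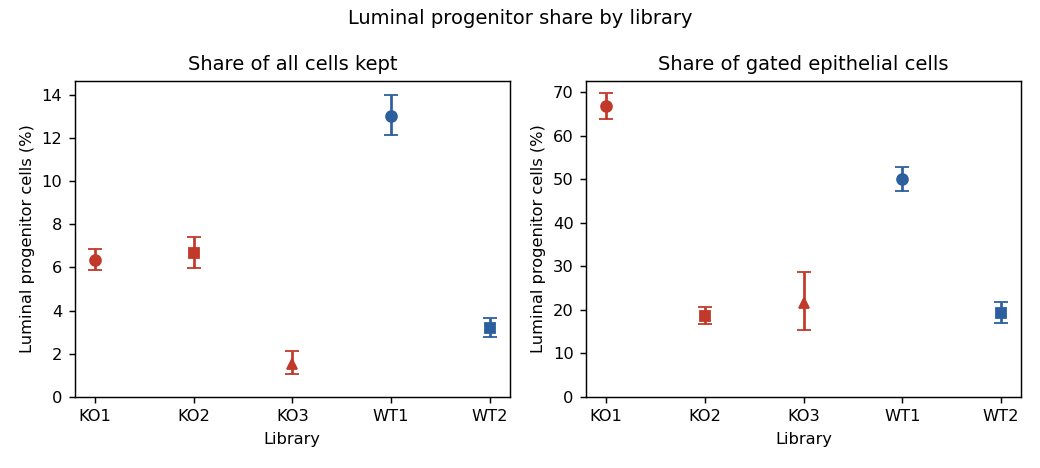
Percentage of luminal progenitor cells among all cells kept (left) and among gated epithelial cells (right) in each library, with exact binomial 95% intervals as bars; KO is red and WT blue. WT1 is highest on the left, KO1 is highest on the right, and the genotypes overlap in both.

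Gene levels were then compared between genotypes within members, on counts summed per library. By edgeR 0 of 10870 genes passed an adjusted p of 0.05 (0%), with 128 at an unadjusted p under 0.05, of which 93 lay lower in KO (0.856%) and 35 higher (0.322%). DESeq2 called 0 with 67 such genes and limma-voom 0 with 166. With no filter on low counts edgeR called 78 genes, 52 of them lower in KO. Libraries did not overlap between genotypes for 810 genes lower in KO (7.45%) and 722 higher in KO (6.64%). In simulated data of this size, 80.1% of genes changed 4-fold and 19.4% of genes changed 2-fold were recovered. The simulated counts varied independently between libraries, without patterns that libraries share, so these rates need not hold for the real data. Irgm1, near a 4-fold change at log2 -1.97, did not pass. Since 0 genes passed, every fold change below is given as a value that did not pass. Its adjusted p by edgeR was 0.9998 unless stated.

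The naming rule takes the lower genes with the smallest unadjusted p among those without overlap and with at least 20 CPM in a group. The interferon response and antigen presentation genes Irgm1, Tap1, Gbp2, H2-T22 and Iigp1 were among them. So were Igkc and Pdgfb, a platelet-derived growth factor, at 12.9, 10.7, 13.1, 22.8 and 22.4 CPM. Interferons induce GTPases that attack vacuoles of intracellular pathogens, and raise the machinery that loads peptides on MHC class I. Irgm1, an interferon-inducible GTPase, stood at 6.55, 5.99, 3.26, 27.4 and 20.4 CPM on 43, 23, 1, 189 and 62 UMIs. All 3 KO libraries lay below both WT libraries, with a log2 difference of -1.97 ± 0.28 (SE, n = 3 and 2; edgeR adjusted p = 0.9998). Over 18 alternatives the adjusted p ran from 3.99e-06, by edgeR with no filter on low counts, to 0.99996. Gbp2, a guanylate-binding protein, stood at 9.59, 19.0, 9.79, 35.0 and 43.1 CPM (log2 -1.50 ± 0.33 SE). H2-T22, a non-classical MHC class I gene, stood at 26.5, 28.4, 19.6, 64.8 and 43.8 CPM (log2 -1.04 ± 0.24 SE).

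The promoters of these 3 genes are shown because a 10-base interferon response-type motif lies in each; capitals mark it. The windows run from 250 bases before to 50 bases after the start, 5′ to 3′ on the gene's strand, from RefSeq on GRCm38.p6: chr11:48871371-48871670 (minus) for Irgm1, chr3:142620413-142620712 (plus) for Gbp2 and chr17:36042693-36042992 (minus) for H2-T22.
Irgm1: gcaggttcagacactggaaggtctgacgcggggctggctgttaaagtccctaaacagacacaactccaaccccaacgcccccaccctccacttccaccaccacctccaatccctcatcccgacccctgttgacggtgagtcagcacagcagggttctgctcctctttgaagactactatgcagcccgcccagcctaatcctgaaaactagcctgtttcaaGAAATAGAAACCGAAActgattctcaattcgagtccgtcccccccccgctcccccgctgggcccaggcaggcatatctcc
Gbp2: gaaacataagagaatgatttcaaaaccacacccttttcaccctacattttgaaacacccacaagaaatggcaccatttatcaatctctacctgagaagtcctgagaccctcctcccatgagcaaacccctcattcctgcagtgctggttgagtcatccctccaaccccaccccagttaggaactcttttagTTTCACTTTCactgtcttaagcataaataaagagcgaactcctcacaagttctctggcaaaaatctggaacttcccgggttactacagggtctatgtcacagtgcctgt
H2-T22: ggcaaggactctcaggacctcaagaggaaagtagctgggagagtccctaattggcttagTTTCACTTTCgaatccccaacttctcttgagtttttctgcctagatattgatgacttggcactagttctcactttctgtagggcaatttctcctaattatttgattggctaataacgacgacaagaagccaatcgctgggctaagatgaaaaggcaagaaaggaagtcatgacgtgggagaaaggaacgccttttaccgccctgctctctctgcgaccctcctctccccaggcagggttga
The motif searched, on both strands, was GAAA, then 2 bases of any kind (NN), then GAAA. In Irgm1 a pair of overlapping matches on the gene's strand begins 30 bases before the start, and in Gbp2 and H2-T22 a match on the other strand begins 59 and 191 bases before it. The motif was found in 3.44% of all 32851 windows and for 3.99% of genes. It was found for 6 of the 7 tested interferon-inducible GTPase genes that matched the table, for 10 of 19 in the type I interferon list and for 5 of 20 in the MHC class I list, to which H2-T22 belongs. A match is a description of letters and not of binding.

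Over all genes tested 7.45% lay lower in KO without overlap and 6.64% higher, the shares to set beside the counts by list. By list, all 9 interferon-inducible GTPases tested of 15 listed lay lower in KO, 7 of them with no overlap. Their median log2 difference was -1.55 beside -0.0081 over all genes tested. The median ran from -1.87 to -1.17 over 18 alternatives. Igtp stood at 4.26, 5.99, 6.53, 18.0 and 12.2 CPM, and Iigp1 at 19.6, 16.1, 16.3, 94.0 and 32.3 CPM. WT1 was the highest library for both, and for Iigp1 WT2 lay nearer the KO libraries than WT1. In KO3 the value of Igtp lay under the 9.79 CPM that 3 UMIs correspond to in that library. Ifi47, another GTPase of this family, stood at 1.52, 2.08, 0, 17.4 and 5.599 CPM on 10, 8, 0, 120 and 17 UMIs. The type I interferon list had 24 genes tested of 27, with 4 lower without overlap and a median of -0.58, which was -0.26 without WT1 and -1.07 without KO2. These lists belong to related pathways and are not independent of each other.

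Antigen presentation genes also lay lower in KO, without passing the test. Of 26 MHC class I and peptide processing genes 23 were tested, 22 of them lay lower in KO, 12 without overlap, and the median was -0.71. The share lower without overlap was 7.45% over all genes tested. Tap1, which carries peptides into the endoplasmic reticulum, stood at 16.6, 20.04, 22.8, 50.7 and 32.6 CPM (log2 -1.16 ± 0.25 SE). Psmb9, an immunoproteasome subunit, stood at 14.5, 19.8, 3.26, 43.6 and 26.7 CPM, and Nlrc5, the class I transactivator, at 2.89, 3.64, 3.26, 11.2 and 7.25 CPM. Both KO3 values lay under the 9.79 CPM that 3 UMIs correspond to in that library. The WT2 value of Nlrc5 lay under that level too. KO3 thus could not be placed below WT2 for Nlrc5, although the gene counts among the 12 without overlap. The light chain B2m stood at 402, 619, 150.1, 1426 and 727 CPM (log2 -1.41 ± 0.57 SE), while the heavy chain H2-K1, at 665, 919, 509, 2047 and 924 CPM, had KO2 level with WT2. Of 10 MHC class II genes 6 were tested, with 4 lower without overlap and a median of -1.45. Cd74, the class II invariant chain, stood at 40.8, 4.17, 9.79, 78.7 and 48.1 CPM. Markers of other cells lay lower in KO as well. Pan-leukocyte markers, 6 tested of 8, all had negative differences, 3 without overlap, with a median of -1.06; their sums given above put KO1 above WT2. The immunoglobulin gene Igkc, of B-lineage cells, stood at 6.39, 3.90, 0, 13.8 and 37.2 CPM. All 7 basal markers tested of 9 had negative differences, 0 without overlap (median -1.43), and 5 of 6 fibroblast markers did, 2 without overlap (median -0.38). The part of such RNA in the differences of the immune lists was not tested. The MHC class II median was -3.18 without KO1 and 0.10 when the collagen limit was raised to 100, a choice made after seeing the data.

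**Figure D4:**
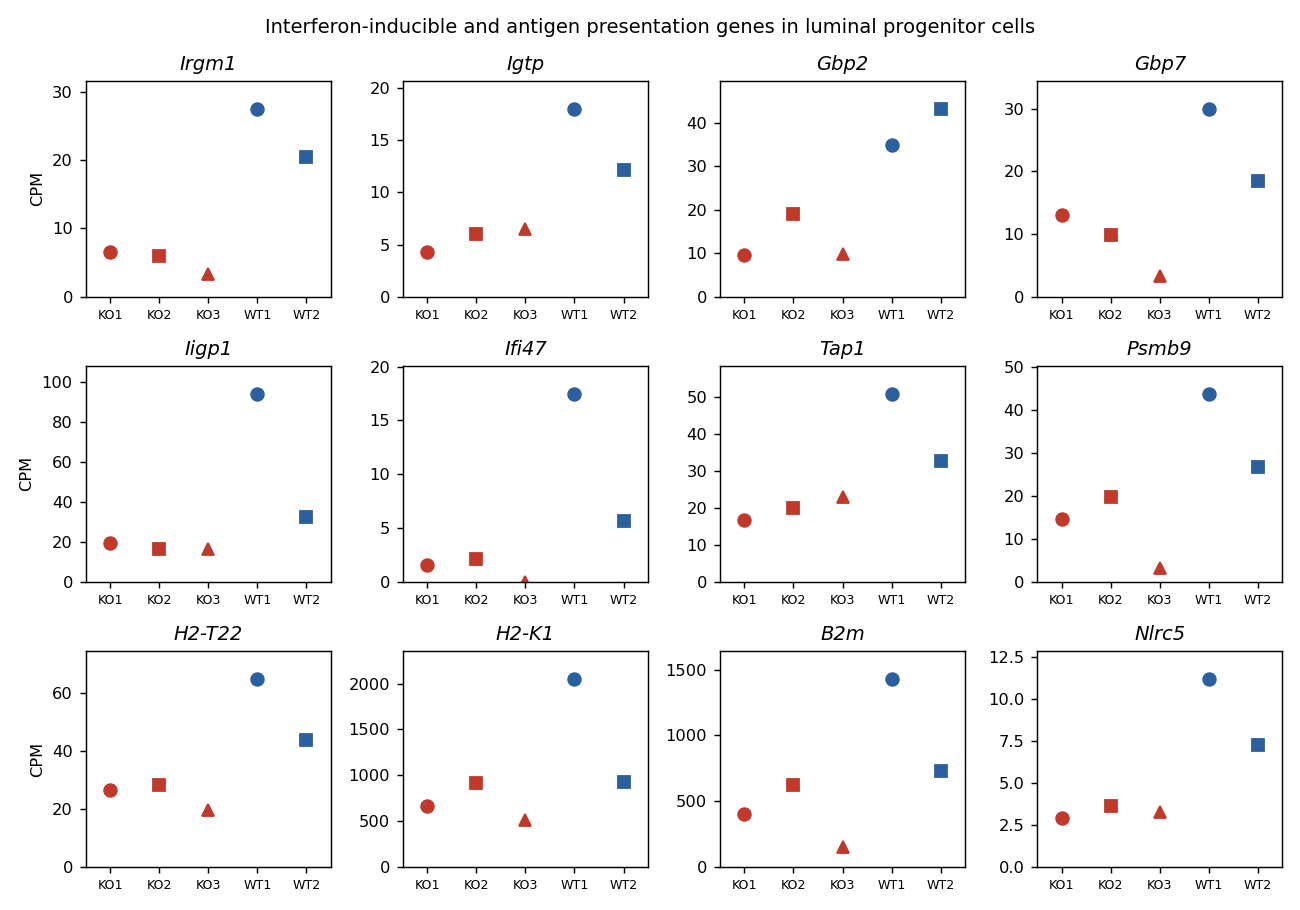
CPM in luminal progenitor cells (linear axes from 0) of 12 interferon-inducible and antigen presentation genes, 1 point per library, red for KO and blue for WT. KO points lie below WT points in every panel, with H2-K1 nearly level between KO2 (919 CPM) and WT2 (924 CPM). On the scaled CPM by which overlap was judged, H2-K1 overlaps. The panels were picked and do not show every tested gene of their lists. Of those, 7 of 9 GTPases and 12 of 23 class I genes lay lower in KO without overlap. Some KO3 points, Irgm1, Igtp, Ifi47, Psmb9 and Nlrc5 among them, lie under the 9.79 CPM of 3 UMIs.

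The naming rule took 8 genes higher in KO. Lpin1, a phosphatidate phosphatase of lipid synthesis, stood at 35.6, 16.1, 35.9, 14.8 and 6.59 CPM (log2 1.29 ± 0.43 SE). Pde4b, which degrades cyclic AMP, stood at 287, 267, 219, 185 and 151 CPM (log2 0.63 ± 0.22 SE). Apoc1 stood at 53.4, 80.4, 45.7, 36.3 and 37.5 CPM and Acadl, an enzyme of fatty acid oxidation, at 183, 188, 222, 141 and 128 CPM. Wdr89, Sinhcaf and the pseudogenes Rpl10-ps3 and Rpl9-ps6 were the others; pseudogene counts are uncertain because reads can be shared with the parent gene. Cdkn2b, an inhibitor of cyclin-dependent kinases, stood at 2.59, 3.64, 6.53, 1.02 and 0.988 CPM on 17, 14, 2, 7 and 3 UMIs. Of 28 lipid synthesis genes 24 were tested, 11 lower and 13 higher in KO, with 1 lower and 2 higher without overlap and a median of 0.05. All genes tested had shares of 7.45% lower and 6.64% higher without overlap.

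Heat shock genes differed mainly through KO3. Of 18 heat shock chaperones all 18 were tested and 16 lay higher in KO, 4 of them without overlap. Over all genes tested 6.64% lay higher in KO without overlap. The list median was 0.58, but 0.12 without KO3. Hsph1, a chaperone of the HSP110 family, stood at 35.5, 39.3, 1070.1, 30.2 and 27.0 CPM, so that KO3 alone stood apart. The rise in KO3 was not confined to members. Before thinning Hspa1a was found in 88.6% of KO3 members and 29.8% to 46.5% of members elsewhere. In leukocytes it was found in 71.6% in KO3 and 7.60% to 22.5% elsewhere. Of 24 chemokine and NF-kB target genes 19 were tested, and 16 lay higher in KO. Of these 0 lay higher without overlap, beside the 6.64% of all genes tested, and the list median was 0.31. That median was 0.74 without KO1, 0.15 without KO2, 0.15 without KO3 and 0.09 with the replicate block. Cxcl2, a neutrophil chemokine, stood at 133, 350.1, 440.4, 65.6 and 144 CPM. KO1 lay below WT2 for it.

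Notch genes, which the study's title names, lay in both directions in members, and 0 passed the test. Of 27 Notch receptor, ligand and processing genes 20 were tested, 10 lay lower and 10 higher, 0 without overlap, with a median of -0.01. Notch1 stood at 124, 122, 225, 145 and 149 CPM and Notch3 at 38.7, 36.4, 84.8, 45.5 and 41.5 CPM. Of 20 Notch effectors and targets 15 were tested, with 1 lower (Hey2, log2 -0.67 ± 0.62 SE) and 1 higher (Snw1, log2 0.31 ± 0.21 SE) without overlap and a median of 0.02. Hey2 and Snw1 were singled out after their values were seen. Among all genes tested 7.45% lay lower and 6.64% higher without overlap, so 1 of 15 in each direction was near those shares. Hes1, the classical Notch target, stood at 284, 275, 127, 226 and 402 CPM (log2 -0.41 ± 0.39 SE). Hey1 stood at 24.8, 7.03, 45.7, 24.3 and 7.57 CPM, low in KO2 and WT2, and Nrarp, a feedback inhibitor, at 19.5, 34.1, 22.8, 29.2 and 85.3 CPM, high in WT2 (log2 -1.10 ± 0.51 SE). With 19.4% of simulated 2-fold changes recovered, differences of that size could go undetected.

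Lists of epithelial identity and proliferation also held no gene that passed. Luminal transcription factors, 30 tested of 34, had a median of 0.09 with 1 lower and 0 higher without overlap. Milk protein and secretion genes, 9 tested of 19, had a median of -0.05 and 0 without overlap. That median was 1.22 without WT1, 0.17 without KO2, 0.05 without KO3, -0.24 without KO1 and -0.29 without WT2. Keratins, 12 tested of 17, had a median of -0.38, with 2 lower without overlap, among them Krt80 at 83.4, 93.5, 26.1, 104 and 171 CPM. Cell cycle genes, 22 tested of 28, had a median of 0.45, with 4 lower and 18 higher in KO and 2 higher without overlap. For all genes tested these shares were 7.45% lower and 6.64% higher without overlap. Mki67, a proliferation marker chosen after its values were seen, was found in 2, 8, 1, 5 and 9 members before thinning. That was a smaller share than in leukocytes of the same library in each case. Top2a, of the cell cycle list and chosen in the same way, was found in 18, 19, 4, 10 and 15 members. Its share was also smaller than in leukocytes, but close in KO3 (11.4% beside 11.8%) and WT2 (7.5% beside 9.01%).

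**Figure D5:**
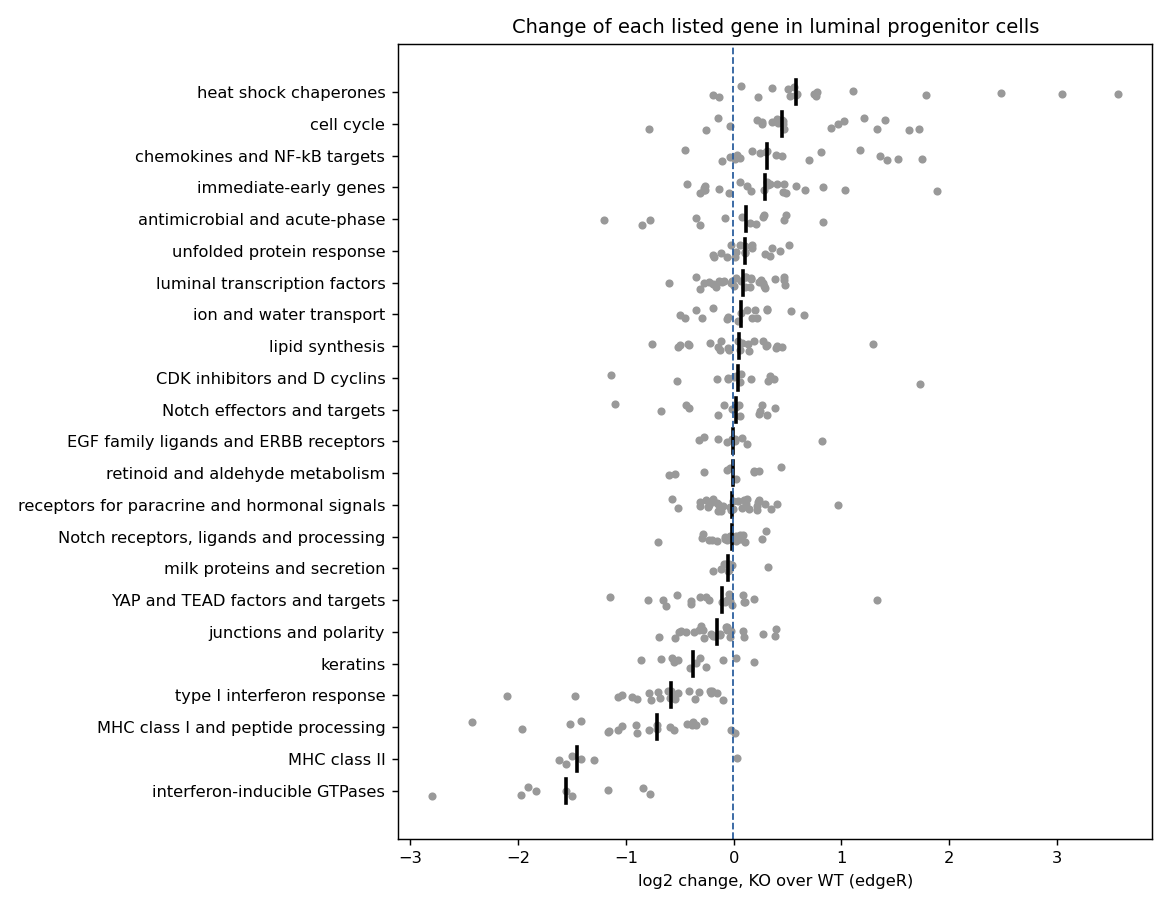
Each grey point is the edgeR log2 change (KO over WT) of 1 tested gene of a list in luminal progenitor cells, black bars are list medians and the dashed line is the median of all 10870 genes tested. Of the lists drawn, interferon-inducible GTPases lie lowest with a median of -1.55, MHC class II next at -1.45 and heat shock chaperones highest at 0.58. Lists of cell type markers are not drawn. Their medians ran from -1.43 for basal/myoepithelial markers to 0.15 for endothelial markers, with pan-leukocyte markers at -1.06. In the test 0 genes passed.

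Whether these differences were particular to progenitors was tested against hormone-sensing cells of the same libraries. By edgeR 0 of 12268 genes passed for the difference of the differences (0%), with 160 at an unadjusted p under 0.05. Irgm1 had a log2 difference of -0.50 ± 1.02 (SE) in hormone-sensing cells, and its change in members minus that in hormone-sensing cells was -1.73 ± 1.29 (SE; edgeR adjusted p = 1). For Gbp2 that difference was -1.17 ± 0.64 (SE) and for H2-T22 -0.63 ± 0.34 (SE). The median change of the GTPase list was -0.39 in hormone-sensing cells, and that of the class I list was -0.23 beside -0.71 in members. Other lists lay the other way: MHC class II had a median of -2.54 in hormone-sensing cells beside -1.45 in members, and pan-leukocyte markers -2.09 beside -1.06. The classes were not shown to differ.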

How the data were processed

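Single-cell transcripts of 5 mammary gland libraries were analysed. The deposited values are raw UMI counts per gene and barcode, made by the authors with Cell Ranger 6.0.2 (KO1, KO2, WT1, WT2) and 6.1.2 (KO3), per the file headers. Per the submitters' processing notes reads were mapped to mm10. The annotation release and how cells were called: not given in the sources used here.

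A barcode entered the gate with 500 or more genes and no more than 15% of its UMIs from mitochondrial genes. Member counts were summed per library, since cells are not replicates, for libraries with at least 20 members. The main test was edgeR 4.0.16 in R 4.3.3 (filterByExpr, TMM, robust quasi-likelihood, Benjamini-Hochberg); DESeq2 1.42.0 and limma 3.58.1 were alternatives. CPM values printed carry no scaling factors, but overlap was judged on CPM with TMM factors. SEs are absolute log2 changes over the square root of the F statistic. The fit was tested on simulated data with 200 changed genes. Positions were read from the GENCODE M21 annotation by Ensembl ID.

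Members, gene lists and comparisons were chosen with earlier results of these data known. Named genes are the gate genes, the 20 leading genes and the 12 most varying genes. They also include up to 8 genes per direction by unadjusted p among non-overlapping genes with at least 20 CPM, and up to 4 genes per list by p and by level. Alternatives covered gates, filters, scaling, tools, left-out libraries and a replicate block. A gene that this rule takes is not reported here.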

Additional observations from a re-analysis of the deposited data

How the results depend on the processing

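Other gates (looser, stricter, stricter exclusion), doublets left out, 10% mitochondrial UMIs, 1000 genes per cell, a minimum of 10 UMIs, no scaling factors, DESeq2 and limma-voom left the count of changed genes at 0. With no filter on low counts it was 78 genes and 29 for the difference from hormone-sensing cells; 67 of the 78 were also tested as given. With the replicate block, 16 genes were called, 12 lower in KO (Irgm1 and Gbp2 among them) and 4 higher, and 143 for the difference from hormone-sensing cells. The block rests on numbers that only KO1 with WT1 (correlation of deviations 0.264) and KO2 with WT2 (0.391) share, and no label says that they mark a batch. Leaving out 1 library gave 0 to 4 genes (1 without WT1, 4 without WT2) and 0 to 14 for the difference between classes (14 without WT1, 4 without WT2); a lone WT library was assumed to vary like the others.

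The share of all cells kept differed by -8.19 to 1.645 percentage points (KO minus WT) when 1 library was left out, and the share of gated epithelium by -14.6 to 16.3, with -14.4 without WT2. The latter was -0.46 after thinning and -1.17 with the collagen limit at 100, an alternative chosen after seeing the data. Of 288 values for the 16 genes that the naming rule takes from the genotype test, over 18 alternatives, 13 passed the threshold. Depth limits KO3 most, with 35 members.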
